A study of Mus musculus with 4 samples.

Results

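The genes described here are the axon guidance ligands and receptors of the mouse genome: the netrins and netrin-Gs with their receptors Dcc, Neo1 and Unc5, the Slits with the Robos, the semaphorins with the neuropilins and plexins, and the ephrins with the Eph receptors. The rule names them by symbol and came to 71 of the 55422 gene IDs counted. The families held 20 Sema, 9 Plxn, 9 Epha, 5 Ephb, 5 Efna, 3 Efnb, 4 Unc5, 4 Robo, 3 Slit, 3 Ntn, 2 Ntng and 2 Nrp genes, besides Dcc and Neo1. RNA of single nuclei was counted in adult mouse hippocampus with droplet libraries (10x Genomics Chromium) read on an Illumina NovaSeq. The 2 Control libraries came from Kat6a-f/f mice, whose Kat6a gene, encoding a histone acetyltransferase, is flanked by loxP sites, and the 2 Kat6a-cKO libraries from mice that carried NEX-cre besides the same floxed alleles. NEX-cre is a Cre recombinase gene inserted at Neurod6, a gene of developing and adult excitatory forebrain neurons, so the deletion is directed to those neurons and not to inhibitory neurons or glia. The labels do not say whether a library is 1 animal or a pool, nor the sex, the exact age or a batch. P-values therefore measure the spread between these libraries, which may in part be technical. Control mice carried no Cre, so the Cre insertion and the intended deletion of Kat6a cannot be told apart here.

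Axon guidance cues are secreted or membrane-bound proteins that a growing axon reads through receptors on its growth cone, which turns toward or away from the source. Netrin-1 attracts through Dcc and repels where Unc5 receptors take part, and Slits repel through Robos. Class 3 semaphorins are secreted and act mostly through a neuropilin joined to a plexin, membrane semaphorins bind plexins directly, and ephrins and Eph receptors signal in both directions between touching cells. In the hippocampus these families are known for laying out the mossy fibre, entorhinal and Schaffer collateral pathways during development, and many remain expressed in the adult, where Eph receptors sit at synapses.

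The promoters of the members that passed a test below are shown first, as the 250 bases before the RefSeq start with each CG pair in capitals. Only stretches that lie wholly before the 5′ end of the annotated gene are shown. They are written 5′ to 3′ on the strand of the gene, from RefSeq on GRCm38.p6. Ephb1, a receptor for B-type ephrins, starts on the minus strand and the stretch is chr9:102354694-102354943. Sema6d, a membrane semaphorin, is on the plus strand with the stretch chr2:124089719-124089968. Epha6, a receptor for A-type ephrins, is on the minus strand with the stretch chr16:60605532-60605781.
Ephb1: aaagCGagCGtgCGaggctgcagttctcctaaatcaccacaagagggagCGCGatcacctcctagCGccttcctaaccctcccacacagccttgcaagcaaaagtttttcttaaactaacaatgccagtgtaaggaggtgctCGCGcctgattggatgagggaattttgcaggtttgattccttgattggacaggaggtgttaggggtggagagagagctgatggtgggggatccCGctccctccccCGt
Sema6d: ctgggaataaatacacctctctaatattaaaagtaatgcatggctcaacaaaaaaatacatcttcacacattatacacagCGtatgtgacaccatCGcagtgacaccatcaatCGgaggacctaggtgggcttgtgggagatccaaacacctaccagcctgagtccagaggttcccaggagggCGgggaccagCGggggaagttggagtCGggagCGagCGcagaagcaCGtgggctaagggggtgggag
Epha6: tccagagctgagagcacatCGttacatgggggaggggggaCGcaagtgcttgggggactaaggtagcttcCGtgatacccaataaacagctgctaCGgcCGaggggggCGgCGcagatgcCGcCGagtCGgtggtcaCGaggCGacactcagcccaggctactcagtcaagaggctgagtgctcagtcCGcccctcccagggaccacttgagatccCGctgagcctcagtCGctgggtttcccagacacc
The stretch of Ephb1 held 10 CG pairs and that of Sema6d 9, and 37.8% and 40.3% of the 32851 RefSeq stretches of this length held at least as many. The stretch of Epha6 held 15, a number reached by 27.3% of them. The median was 16 CG pairs over the 77 stretches of the 61 members in the RefSeq table and 6 over all stretches. These counts describe the sequences and say nothing of what binds there. Unc5d and Sema3c are named without a sequence.

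The libraries held 186897245 and 183440076 UMIs, the molecules counted, in Control and 177249737 and 171323466 in Kat6a-cKO, and 8258, 7961, 8442 and 7911 barcodes with at least 5000 UMIs, taken as nuclei. After 243 to 298 called doublets per library were left out, the nuclei were clustered without the guidance genes, and clusters were named from marker lists, so that "CA1-like" stands for a cluster with raised CA1 markers. The names gave 13 classes, and 11.9% and 12.8% of Control nuclei and 17.8% and 16.1% of Kat6a-cKO nuclei stayed unnamed. Barcodes with at least 500 but fewer than 5000 UMIs numbered 43621 and 56954 in Control against 10700 and 6417 in Kat6a-cKO. Library pairs shared 15 to 20 nuclear barcodes. The Cre entry of the reference had 0 UMIs in both Control libraries in each of the 7 classes tested. In Kat6a-cKO it had 50 and 52 UMIs in CA1-like and 32 and 48 in CA3-like nuclei. It had 5 and 6 in dentate granule-like nuclei, 0 and 2 in inhibitory-like nuclei and 0 in the glia-like classes. Kat6a itself, counted over the whole gene, was at 63.0 and 66.2 CPM (counts of a gene scaled to a fixed total, the standard unit of RNA level) in Control and 58.8 and 65.7 in Kat6a-cKO in CA3-like nuclei, and did not pass the test in any of the 7. Whether such a count registers the deletion was not tested. In CPM the Cre entry was at 2.25 and 1.89 in CA1-like and 2.21 and 2.83 in CA3-like nuclei of Kat6a-cKO. It was at 0.145 and 0.190 in dentate granule-like and 0 and 0.201 in inhibitory-like nuclei. Neurod6, where Cre is inserted, was lower in Kat6a-cKO in CA1-like (log2 change -0.65, adjusted p = 0.0471 in edgeR) and dentate granule-like nuclei (-0.88, adjusted p = 0.0417). It did not pass in CA3-like nuclei (-0.49, adjusted p = 0.185).

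Levels of the guidance genes differed strongly between classes of nuclei. A level here is the CPM of the summed nuclei of a class, and is compared only within a gene. Of the 71 members, 57 reached a mean of 10 CPM over the 4 libraries in at least 1 of the 13 classes and 14 stayed under it in all. For 36 of the 57 the highest class stood above the next one in every library. Immature dentate-like nuclei were the highest class for 14 of the 57, oligodendrocyte-like nuclei for 9, and oligodendrocyte precursor-like and subicular or entorhinal-like nuclei for 5 each. The same counts over all genes are not given here, so these are not shown to be particular to guidance genes. The order of classes is a description, without a test, and low levels may hold some free RNA, RNA released from other cells.

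**Figure D1:**
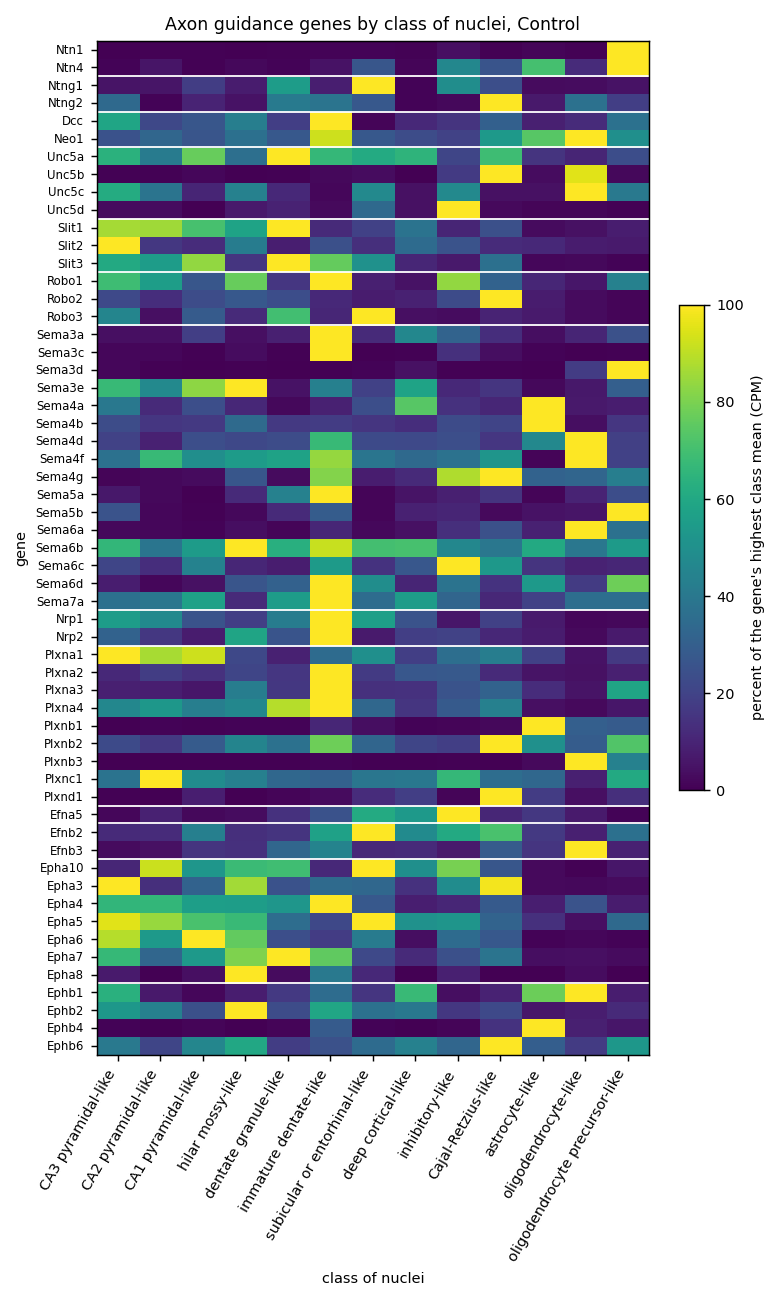
Level of 57 axon guidance genes (rows, grouped by family) in 13 classes of nuclei (columns) in Control, as a percent of each gene's own highest class, from the mean CPM of 2 libraries. Ntn1, Sema3d and Sema5b are bright in oligodendrocyte precursor-like nuclei, while Dcc, Sema3c, Sema5a and Sema6d are bright in immature dentate-like nuclei.

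Among the netrin ligands, Ntn1 stood out in oligodendrocyte precursor-like nuclei, at 208 to 248 CPM across the 4 libraries, while the next class, inhibitory-like nuclei, was at 9.15 to 16.9. Ntng1, a membrane-anchored netrin-G that binds a different receptor family, was highest in subicular or entorhinal-like nuclei at 692 to 914 CPM, above dentate granule-like nuclei at 407 to 481. Ntng2 was highest in Cajal-Retzius-like nuclei at 73.6 to 113 CPM, a class of only 22 to 34 nuclei per library.

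Among the receptors of netrin-1, Dcc, the attractive receptor, was highest in immature dentate-like nuclei at 5083 to 6508 CPM and next highest in CA3-like nuclei at 3221 to 3943, with no overlap between the libraries. The 4 Unc5 receptors had 3 different leading classes. Unc5c was highest in oligodendrocyte-like nuclei at 2888 to 3586 CPM and next in CA3-like nuclei at 1853 to 2050. Unc5d was highest in inhibitory-like nuclei at 1792 to 2035 CPM and lowest in CA1-like nuclei at 6.46 to 14.1. Its level in subicular or entorhinal-like nuclei spread from 344 to 940 CPM over libraries, and replicates of the same genotype differed there by more than the genotypes did. Unc5a was highest in dentate granule-like nuclei, which overlapped with the next class, and Unc5b in oligodendrocyte-like nuclei, which did so as well.

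The Slits and Robos had different leading classes within the hippocampal circuit. Slit2 was highest in CA3-like nuclei at 534 to 636 CPM, followed by hilar mossy-like nuclei at 223 to 255. Slit1 and Slit3 were highest in dentate granule-like nuclei, at 445 to 471 CPM and 1621 to 1735. These stood above the next class in every library for both genes. Of their receptors, Robo1 was highest in immature dentate-like nuclei at 2072 to 2365 CPM, just above inhibitory-like nuclei at 1807 to 2004, and Robo2 in Cajal-Retzius-like nuclei at 1882 to 3656.

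Semaphorins were spread over neurons and glia. Sema3c, a secreted semaphorin, was at 331 to 610 CPM in immature dentate-like nuclei and at 65.2 to 83.5 in inhibitory-like nuclei, the next class. Sema3d was at 521 to 578 CPM in oligodendrocyte precursor-like nuclei against 76.3 to 140 in oligodendrocyte-like nuclei. Sema3e, which signals through Plxnd1, was highest in hilar mossy-like nuclei, where it overlapped with CA1-like nuclei. The membrane semaphorins Sema5a and Sema6d were both highest in immature dentate-like nuclei, at 1956 to 2285 and 1517 to 1772 CPM. The neuropilins Nrp1 and Nrp2, co-receptors of the secreted semaphorins, were highest in the same class, at 712 to 893 and 522 to 580 CPM. So were the plexins Plxna2 and Plxna4, at 566 to 912 and 1726 to 1915 CPM. Sema3d, Plxna2 and, in the plot of levels, Sema5b were picked out after their values were seen.

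Ephrins and Eph receptors had other leading classes. The ligand Efna5 was highest in inhibitory-like nuclei at 324 to 387 CPM and overlapped with subicular or entorhinal-like nuclei. Efnb3 was highest in oligodendrocyte-like nuclei at 55.1 to 78.9 CPM. Of the receptors, Epha6 was highest in CA1-like nuclei at 5729 to 6897 CPM and overlapped with CA3-like nuclei, with far lower values in glia-like nuclei. Epha7 was highest in dentate granule-like nuclei at 1357 to 1589 CPM and Epha4 in immature dentate-like nuclei at 881 to 1084. Ephb1 was highest in oligodendrocyte-like nuclei at 496 to 752 CPM and overlapped with astrocyte-like nuclei at 354 to 498. It was at 354 to 452 CPM in CA3-like and 89.8 to 118 in dentate granule-like nuclei. In CA1-like nuclei, its lowest class, it was at 9.14 to 24.2.

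The genotypes were then compared within 7 classes, with the UMIs of a class summed per library and every gene fitted together. CPM values in these comparisons are scaled by the trimmed mean of M-values (TMM), and a gene was called at a Benjamini-Hochberg adjusted p under 0.05 in edgeR's quasi-likelihood test. In CA1-like nuclei the call fell on Ephb1 alone among the 62 members tested, where 0.202% of all genes tested were called, 0.0977% in its direction. Ephb1, whose kinase signalling from B-type ephrins is known to shape dendritic spines, was at 9.29 and 10.7 CPM in Control and at 24.7 and 21.2 in Kat6a-cKO. Both Kat6a-cKO libraries lay above both Control libraries, and the rise was 1.20 ± 0.13 on the log2 scale (SE, adjusted p = 0.0186 in edgeR). SE in these fits is the size of the log2 change divided by the square root of the F statistic of the test. It is not a spread observed between libraries. The values rest on 242 and 314 UMIs in Control and 536 and 585 in Kat6a-cKO. Ephb1 lies on chromosome 9 from 101922128 to 102354693 on the minus strand (GRCm38, GENCODE M21), and 9 annotated genes overlap it, 6 of them on the opposite strand. Whether the counting used strand is not given in the sources used here, so RNA of those genes could be part of the count.

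**Figure D2:**
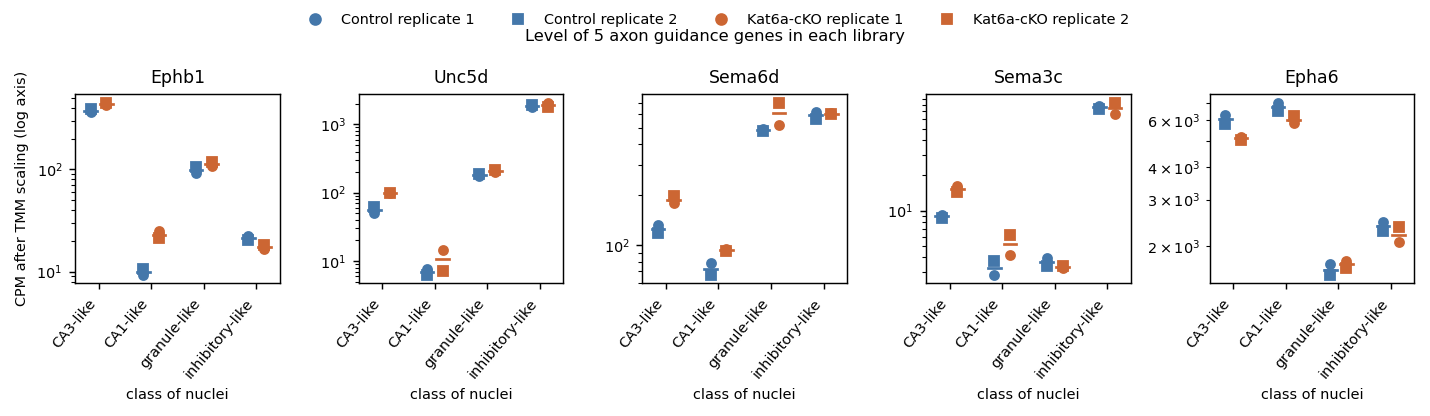
Level of Ephb1, Unc5d, Sema6d, Sema3c and Epha6 in each of the 4 libraries (points, with a bar at the mean of 2) in 4 classes of nuclei, as TMM-scaled CPM on log axes that differ between panels. Ephb1 is higher in both Kat6a-cKO libraries in CA1-like nuclei, and Unc5d and Sema6d are higher in both in CA3-like nuclei.

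Both Kat6a-cKO libraries were higher in Ephb1 in each of the 3 CA1-like clusters, as the plot by cluster shows. In plain CPM it was at 8.61 and 8.51 in Control against 20.8 and 17.7 in Kat6a-cKO in cluster 3, at 7.63 and 10.9 against 24.1 and 21.2 in cluster 5, and at 17.6 and 23.9 against 34.9 and 33.8 in cluster 11. At the finer Leiden resolution of 2 in place of 1, both Kat6a-cKO libraries were above both Control libraries in 6 of 6 CA1-like clusters. Ephb1 was also higher in both Kat6a-cKO libraries in CA2-like nuclei, at 37.6 and 41.9 CPM against 61.4 and 59.9, and in hilar mossy-like nuclei, at 47.1 and 45.6 against 104 and 74.1. Neither class was tested. Over the 33 clusters with at least 20 nuclei in every library, Ephb1 was above in 12 and below in 3. Clusters come from the same libraries and several split the same class, so such counts only describe. The share of all genes by cluster is not given here.

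Many marker lists, also those of other lineages, did not overlap between the genotypes in CA1-like nuclei. The CA3, inhibitory, subicular or entorhinal, deep cortical and immature dentate lists did overlap. So did the oligodendrocyte precursor, committed precursor and mural or fibroblast lists. Oligodendrocyte markers summed to 90.5 and 84.4 CPM in Control and 76.4 and 67.0 in Kat6a-cKO. Astrocyte markers summed to 90.2 and 84.5 against 97.1 and 96.3. Of all single genes tested in this class, the groups did not overlap for 39.3%, in TMM-scaled CPM, while the marker sums are in plain CPM. The sum of 5 dorsal-type markers was at 76.1 and 81.9 CPM in Control and 45.4 and 62.8 in Kat6a-cKO. Wfs1 was at 34.4 and 40.5 against 14.8 and 25.6, and Lct at 15.6 and 12.5 against 9.29 and 9.87. Ccn3 overlapped between the groups, at 17.3 and 18.0 against 11.5 and 17.4. So did Gsg1l, at 8.35 and 10.4 against 9.78 and 9.47, and Iyd was at 0.415 and 0.457 against 0.0902 and 0.401. The sum of 7 CA1 markers was at 8578 and 7723 against 6857 and 7135 CPM in the same order. The sum of the 6 ventral-type markers overlapped between the groups. Of these, Htr2c, the most abundant, was lower in both Kat6a-cKO libraries, at 39.1 and 30.0 against 27.7 and 24.0 CPM. Calcrl was higher in both, at 8.12 and 8.29 against 10.0 and 9.36. Free RNA was estimated at 6.39% and 6.23% of CA1-like UMIs in Control and 5.45% and 4.00% in Kat6a-cKO, and would give 6.40, 6.18, 6.41 and 4.59 CPM of Ephb1. This estimate is too high for at least some members: the same shares would give 12.2 and 11.9 CPM of Unc5d in CA1-like nuclei of Control, where 7.63 and 6.46 were counted. Subtracting it therefore takes off too much in such cases, and values after subtraction are given only as the result of that setting. The part of these marker and free RNA differences in the rise of Ephb1 was not tested. With the estimated amount subtracted the difference was 2.16 on the log2 scale, and the gene did not pass (adjusted p = 0.0834 in edgeR). The call was lost as well without Control replicate 2 (1.30, adjusted p = 0.0606) with doublets kept (1.00, adjusted p = 0.0533) and with nearby unnamed clusters added (1.11, adjusted p = 0.0849), an alternative chosen after seeing the data.

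In CA3-like nuclei 2 of the 55 members tested were called, both higher in Kat6a-cKO, where 0.0611% of all genes tested were called, 0.0408% in this direction. Unc5d, a netrin receptor of the repulsive class that also binds Flrt proteins, was at 50.7 and 62.2 CPM in Control and 98.4 and 98.2 in Kat6a-cKO. Its rise was 0.80 ± 0.10 on the log2 scale (SE, adjusted p = 0.0243 in edgeR). Sema6d, a membrane semaphorin that binds Plxna1, was at 132 and 119 CPM in Control and 177 and 196 in Kat6a-cKO. Its rise was 0.58 ± 0.08 (adjusted p = 0.0447 in edgeR). The libraries of the groups did not overlap for either gene. Unc5d lies on chromosome 8 from 28646717 to 29219636 on the minus strand with 3 overlapping genes, none on the opposite strand. Sema6d lies on chromosome 2 from 124089969 to 124667770 on the plus strand, with 2 overlapping genes on the opposite strand.

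**Figure D3:**
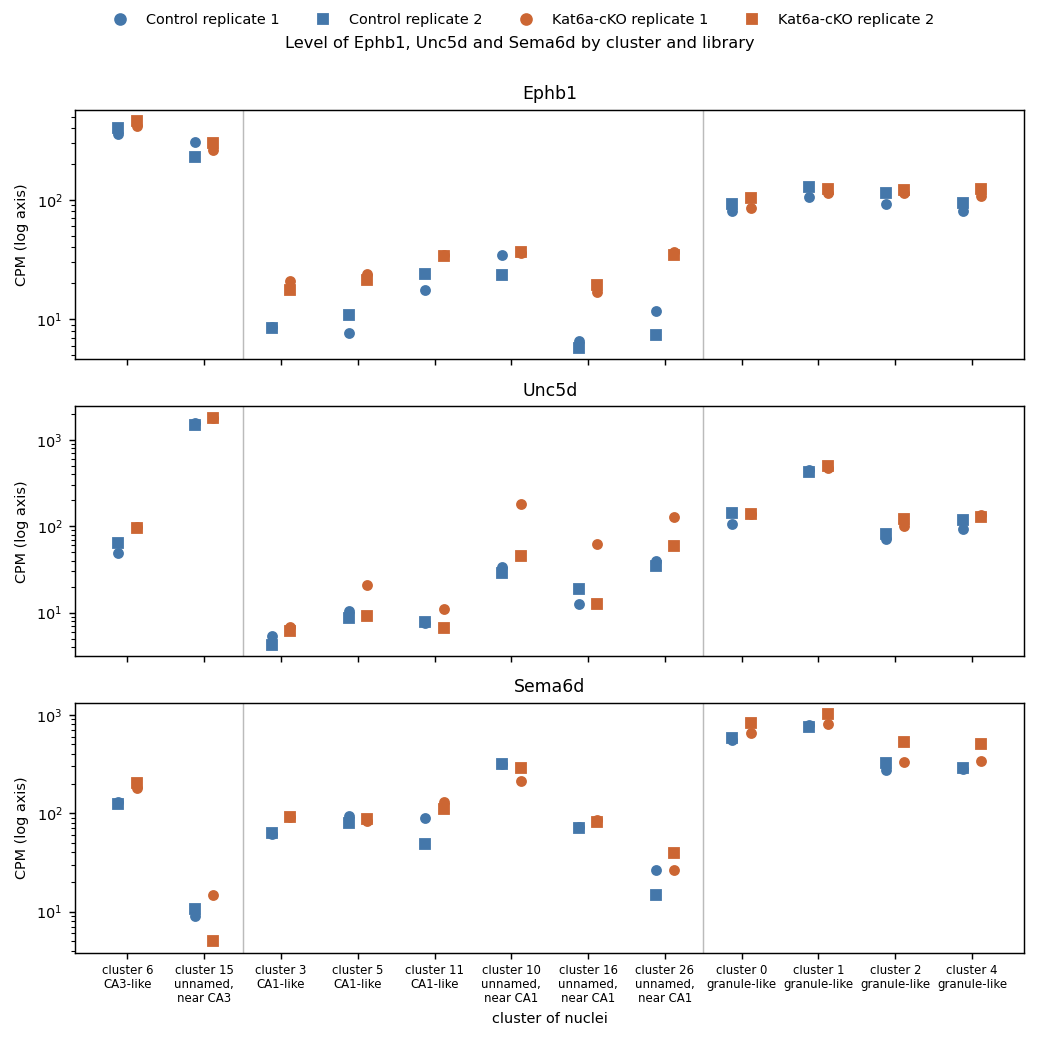
Level of Ephb1, Unc5d and Sema6d in plain CPM (log axes) in 12 clusters of nuclei, with 1 point per library and grey lines between CA3, CA1 and granule clusters; unnamed clusters are placed by the class whose markers they share most. Unc5d is at 1501 to 1807 CPM in unnamed cluster 15, far above cluster 6, and Kat6a-cKO replicate 1 stands above the other libraries for Unc5d in clusters 10, 16 and 26.

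Unc5d was unevenly spread among nuclei with CA3 markers. Cluster 6, which held nearly all CA3-like nuclei, was at 49.2 and 63.8 CPM in Control and 98.0 and 96.7 in Kat6a-cKO. Unnamed cluster 15, with Calcrl, Htr2c and Col6a1 among its leading genes and next to CA3 by its markers, was at 1577 and 1501 against 1807 and 1786. In this cluster Sema6d was low, at 9.02 and 10.6 CPM against 14.9 and 4.97. Over the 33 clusters with at least 20 nuclei in every library, both Kat6a-cKO libraries were above both Control libraries for Unc5d in 18. They were below in 1, and for Sema6d above in 17 and below in 3. Higher values were thus also seen outside CA3-like nuclei. These clusters share the same libraries and several split the same class, so they are not separate evidence. The share of all genes by cluster is not given here. With cluster 15 and the other unnamed clusters near CA3 or CA1 added to their nearest class, the change of Unc5d in CA3 was 0.36 (adjusted p = 0.286 in edgeR) and that of Sema6d 0.57 (adjusted p = 0.0916).

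Single markers of position along the hippocampus differed between the genotypes in CA3-like nuclei as well. So did lists of other kinds, such as oligodendrocyte markers at 61.3 and 60.7 CPM in Control against 50.5 and 45.9. Hilar mossy markers were at 70.3 and 74.3 against 77.9 and 79.1. The CA3 markers themselves overlapped between the groups, at 3548 and 3508 CPM in Control against 3458 and 3523. So did the CA1, deep cortical, inhibitory, astrocyte and oligodendrocyte precursor lists. The mural or fibroblast, Cajal-Retzius, ependymal and choroid plexus lists overlapped as well. Of all single genes tested in this class, the groups did not overlap for 37.8%, in TMM-scaled CPM, while the marker sums are in plain CPM. The 6 ventral-type markers summed to 33.9 and 44.7 CPM in Control and 48.3 and 52.1 in Kat6a-cKO, with Calcrl at 12.6 and 16.2 against 20.8 and 24.0. Htr2c, the most abundant of them, overlapped between the groups at 19.4 and 26.9 against 25.2 and 26.2 CPM, and the other 4 were near 1 CPM or below. The 5 dorsal-type markers summed to 40.4 and 49.6 CPM against 33.5 and 38.5, and 8 dentate granule markers to 181 and 195 against 204 and 248. Most of the dorsal-type sum was Iyd, at 32.6 and 38.2 against 27.1 and 29.9. Ccn3 was lower too, at 1.24 and 1.77 against 1.17 and 1.06, while Wfs1, Lct and Gsg1l overlapped between the groups. In the larger pair of CA3-like clusters of the finer clustering, Unc5d was at 42.4 and 55.9 CPM against 85.0 and 84.9 where Calcrl was at 8.78, 8.20, 10.2 and 10.8, and at 61.9 and 99.4 against 121 and 116 where Calcrl was at 18.8, 27.0, 31.1 and 34.0. Sema6d was at 178 and 163 CPM against 246 and 277 in the first of these and at 60.5 and 49.0 against 61.5 and 80.9 in the second. The part of these marker differences in the rises was not tested further. Neither gene passed at the finer resolution (0.70, adjusted p = 0.0970 for Unc5d; 0.58, adjusted p = 0.0597 for Sema6d), where the class went from 476 to 477 and from 558 to 559 nuclei in Control and kept 588 and 678 in Kat6a-cKO. Neither passed with free RNA subtracted (0.87, adjusted p = 0.101; 0.61, adjusted p = 0.138). Sema6d also did not pass with doublets kept (0.55, adjusted p = 0.0841) or in the largest cluster alone (0.59, adjusted p = 0.0552).

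The other members with the smallest p-values in CA3-like nuclei did not pass the test. The ligands were Sema3c, at 9.24 and 8.66 CPM in Control and 16.3 and 14.3 in Kat6a-cKO (0.77 ± 0.14, adjusted p = 0.104 in edgeR), and Efna5, at 5.66 and 6.59 against 11.9 and 7.96 (0.68 ± 0.21, adjusted p = 0.350). Efna5 was highest in Kat6a-cKO replicate 1, as it was in barcodes under 100 UMIs, used for free RNA. There it was at 85.7 and 90.7 CPM in Control against 156 and 104. The part of free RNA in its difference was not tested. Among receptors for A-type ephrins, Epha7 was at 990 and 1010 CPM against 824 and 793 (-0.31 ± 0.07, adjusted p = 0.151). Epha6 was at 6296 and 5818 CPM against 5208 and 5050 (-0.24 ± 0.07, adjusted p = 0.327). Epha10, an Eph receptor without kinase activity, was instead higher in both Kat6a-cKO libraries, at 8.57 and 13.1 against 16.1 and 17.4 (0.62 ± 0.18, adjusted p = 0.304). Of the 7 Epha receptors tested in CA3-like nuclei, 4 were lower in both Kat6a-cKO libraries than in either Control library, as were 19.5% of all genes tested, and 1 was higher, as were 18.3%. Robo3, a Robo that does not bind Slit in mammals, was at 18.3 and 20.2 CPM against 25.3 and 24.7 (0.38 ± 0.11, adjusted p = 0.327). At an unadjusted p under 0.05 there were 9 members higher and 3 lower, 12 of 55. Of the 14720 genes tested 8.12% reached that p, 517 higher and 679 lower. The groups did not overlap for 24 of 55, 14 higher and 10 lower in Kat6a-cKO, against 37.8% of all genes tested. Their median log2 change was 0.04, against -0.0048 for all genes.

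Several of the best known ligands and receptors had small fitted differences in CA3-like nuclei. Dcc was at 4024 and 3145 CPM in Control and 3751 and 3606 in Kat6a-cKO, and Unc5c at 2060 and 1809 against 2085 and 1924. Slit2 was at 566 and 522 CPM against 647 and 598 (0.19 ± 0.07, adjusted p = 0.483 in edgeR), while its receptor Robo1 was at 1566 and 1503 against 1506 and 1434. Nrp1, Plxna4, Sema3e and Epha4 had log2 changes between -0.02 and 0.01. An adjusted p above the threshold does not show that these levels were equal.

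**Figure D4:**
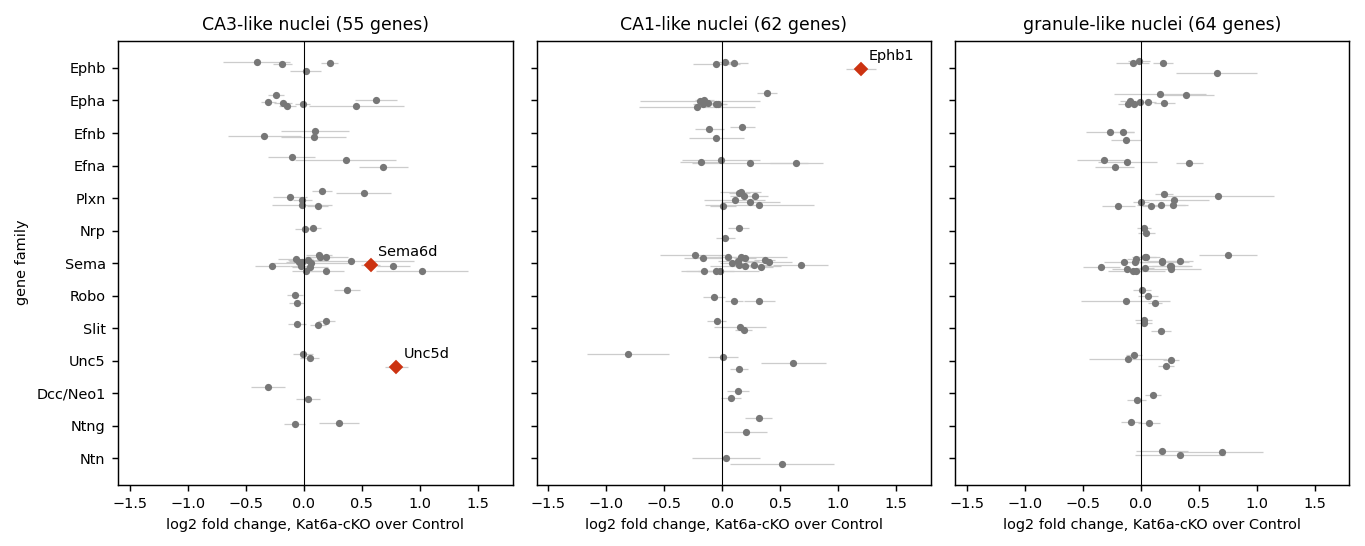
Log2 fold change of Kat6a-cKO over Control for each member tested (points, bars of 1 SE), by gene family, in CA3-like, CA1-like and dentate granule-like nuclei; diamonds with names mark members with an adjusted p under 0.05 in edgeR. Most members lie within 0.5 of 0, and Ephb1 at 1.20, Unc5d at 0.80 and Sema6d at 0.58 are the named ones.

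In CA1-like nuclei the members that followed Ephb1 were higher in both Kat6a-cKO libraries and did not pass the test. Sema6d was at 78.5 and 66.6 CPM in Control and 94.7 and 92.5 in Kat6a-cKO (0.37 ± 0.09, adjusted p = 0.203 in edgeR). Epha10 was at 49.3 and 55.3 CPM against 67.4 and 69.6 (0.39 ± 0.09, adjusted p = 0.156). Sema4b, a membrane semaphorin, was at 20.0 and 20.2 CPM against 26.0 and 24.7 (0.34 ± 0.10, adjusted p = 0.300). Sema3c, Efna5, Ntng2 and Plxnc1, the plexin that binds Sema7a, had log2 differences of 0.68, 0.64, 0.31 and 0.28. Efna5 and Plxnc1 were highest in Kat6a-cKO replicate 1, at 14.8 against 8.75 CPM and 80.9 against 63.5 in replicate 2. Both were also highest in that library in barcodes under 100 UMIs, used for free RNA. There Efna5 was at 85.7 and 90.7 CPM in Control against 156 and 104, and Plxnc1 at 41.4 and 45.9 against 60.5 and 50.1. The part of free RNA in these 2 differences was not tested. Epha6 and Epha5 were lower in both Kat6a-cKO libraries, at 7007 and 6534 CPM against 5858 and 6217 and at 1308 and 1245 against 1176 and 1173. At an unadjusted p under 0.05 there were 11 members higher and 1 lower, the latter Unc5b at 1.46 and 2.08 CPM against 1.34 and 0.726. Of the 16372 genes tested 8.9% reached that p, 593 higher and 864 lower. The groups did not overlap for 27 of 62 members, 21 higher and 6 lower, against 39.3% of all genes tested, 18.6% higher and 20.6% lower. The median log2 change was 0.12 for the members and -0.00077 for all genes.

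In dentate granule-like nuclei 0 of 64 members were called in edgeR, where 0.433% of all genes tested were. At an unadjusted p under 0.05 there were 8, all higher in Kat6a-cKO, and DESeq2 called 0. Of the 17308 genes tested 9.96% reached that p, 582 higher and 1142 lower. The smallest p was that of Unc5c, at 376 and 356 CPM in Control and 457 and 422 in Kat6a-cKO (0.26 ± 0.07, adjusted p = 0.161 in edgeR). Efna5 was at 52.0 and 48.7 CPM against 77.1 and 57.7 (0.42 ± 0.12, adjusted p = 0.220). It was again highest in Kat6a-cKO replicate 1, the library with most Efna5 in barcodes under 100 UMIs. The part of free RNA in this difference was not tested. Unc5d was at 173 and 187 CPM against 202 and 215 (0.22 ± 0.07, adjusted p = 0.295). Sema6d was at 490 and 478 CPM against 521 and 704, so that 1 library of Kat6a-cKO was close to Control and the other far above it (0.34 ± 0.12, adjusted p = 0.334). Sema4g, Plxnc1, Epha10 and Ephb1 had log2 differences of 0.75, 0.20, 0.21 and 0.19. The groups did not overlap for 26 of 64 members, 22 higher and 4 lower, against 40.1% of all genes tested, 19.7% higher and 20.4% lower. The median log2 change was 0.04 against 0.0039.

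The differences between classes were tested in fits of 2 classes at once, with the library as a block. The change of Ephb1 was smaller in CA3-like than in CA1-like nuclei by 0.95 ± 0.10 on the log2 scale (a difference of -0.95, adjusted p = 0.000311 in edgeR). In CA3-like nuclei Ephb1 was at 361 and 386 CPM in Control and 422 and 449 in Kat6a-cKO, a log2 difference of 0.22. At the finer resolution both Kat6a-cKO libraries were above both Control libraries in 1 of 3 CA3-like clusters. They were below in 1, which held 8 to 26 nuclei per library. In the test of CA3-like against CA1-like nuclei Ephb1 was the 1 member of 61 that passed, where 0.249% of all genes tested did. Between CA1-like and dentate granule-like nuclei Ephb1 was again the 1 member of 64 that passed, with a difference of 1.03 ± 0.11 (adjusted p = 0.00114 in edgeR), where 0.209% of all genes did. That difference did not pass with free RNA subtracted (1.99, adjusted p = 0.0772) or with nearby unnamed clusters added (0.94, adjusted p = 0.0852).

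Between CA3-like and dentate granule-like nuclei 3 of 64 members passed, where 0.307% of all genes tested did. The change of Unc5d was larger in CA3-like nuclei by 0.57 ± 0.08 (adjusted p = 9.69e-05 in edgeR). It did not pass with free RNA subtracted (0.68, adjusted p = 0.145) or with nearby unnamed clusters added (0.13, adjusted p = 0.932). The change of Sema3c was larger by 0.90 ± 0.19 (adjusted p = 0.0333), with levels in dentate granule-like nuclei of 3.95 and 3.37 CPM in Control and 3.24 and 3.40 in Kat6a-cKO. Sema3c did not pass without Control replicate 1 (adjusted p = 0.0586), without Kat6a-cKO replicate 1 (0.250), at a minimum of 8000 UMIs (0.0646), with doublets kept (0.0628), in the largest cluster alone (0.0995) or with nearby unnamed clusters added (0.103). Subtraction of free RNA gave no usable value for it, since the estimate for dentate granule-like nuclei (4.16 and 3.80 CPM in Control, 4.48 and 2.28 in Kat6a-cKO) exceeded the counted level in 3 of 4 libraries. The change of Epha6 was more negative in CA3-like nuclei by -0.32 ± 0.05 (adjusted p = 0.00104), with dentate granule-like nuclei at 1702 and 1552 CPM in Control and 1760 and 1647 in Kat6a-cKO. Epha6 did not pass without Kat6a-cKO replicate 1 (-0.28, adjusted p = 0.0895) or with free RNA subtracted (-0.33, adjusted p = 0.526). By cluster, Epha6 was below in both Kat6a-cKO libraries in 12 of 33 clusters. Among them were those of CA1-like, CA2-like and hilar mossy-like nuclei and cluster 6. It was above in 3, among them immature dentate-like nuclei at 1144 and 1283 CPM against 1506 and 1676. These counts only describe, and the share of all genes by cluster is not given here. Sema6d, called in CA3-like nuclei, did not pass in any of the 3 tests between classes.

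In inhibitory-like nuclei, to which the deletion is not directed, 0 of 60 members were called in edgeR, where 0.0273% of all genes tested were called. DESeq2 called 0 as well, and 5 members had an unadjusted p under 0.05, against 6.56% of all genes. Unc5d, highest in this class, was at 1806 and 1935 CPM in Control and 2078 and 1820 in Kat6a-cKO. Ephb1 was at 22.5 and 20.5 CPM against 16.7 and 18.3 (-0.30 ± 0.13, adjusted p = 0.713 in edgeR). Its sign turned with doublets kept (0.22) and in the largest cluster alone (0.10), and the difference from CA1-like nuclei was not tested. The groups did not overlap for 15 of 60 members, against 35.7% of all genes.

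Glia-like classes were small and shallow, and no member was called in them. In edgeR 0 of 27 members passed in astrocyte-like nuclei, 0 of 35 in oligodendrocyte-like nuclei and 0 of 44 in oligodendrocyte precursor-like nuclei, where 0.0312%, 0.0129% and 0.103% of all genes tested were called. At an unadjusted p under 0.05 there were 3, 2 and 4, against 5.96%, 5.52% and 7.77% of all genes, and DESeq2 called 0 in each. In oligodendrocyte precursor-like nuclei Slit3 was at 18.0 and 17.1 CPM in Control and 35.4 and 59.5 in Kat6a-cKO (1.36 ± 0.34, adjusted p = 0.102 in edgeR). These values rest on 20, 14, 33 and 35 UMIs, from 93 to 176 nuclei per library. Ntn1, highest in this class, was at 254 and 234 CPM against 216 and 216.

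Other genes of axon guidance signalling, a list of 72 such as collapsin response mediators and the Flrt and Rgm genes, had 0 calls in edgeR in each of the 7 classes. Of those tested, 10 of 65 in CA3-like, 9 of 64 in CA1-like and 4 of 67 in dentate granule-like nuclei had an unadjusted p under 0.05, against 8.12%, 8.9% and 9.96% of all genes. The median log2 changes were 0.05, 0.07 and 0.03. In the tests between classes 1 gene of this list passed for CA3-like against CA1-like nuclei, Nell1, of the Nel family of secreted proteins, with a difference of 0.31 ± 0.05 (adjusted p = 0.0162 in edgeR), where 0.249% of all genes passed. Against dentate granule-like nuclei 1 passed, the cell adhesion molecule Chl1 with 0.45 ± 0.07 (adjusted p = 0.00156), where 0.307% of all genes passed. Both are named after their values were seen.

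The members that passed a test were compared with all genes by their pattern over 26 points, 13 classes in each of 2 Control libraries, on log2(CPM + 1) among 9314 genes that reached 20 CPM in a class. The points share their libraries and the depth of their class, so the correlations only describe. The pattern of Epha6 was most like those of Gria1, an AMPA receptor subunit (r = 0.95), Wscd2 and Kcnip4 (r = 0.94 and 0.93). For Ephb1 the nearest were Srebf2, Mapre2 and Fmnl2 at r = 0.72, 0.72 and 0.71, the lowest of the 5 members. For Unc5d they were Tbc1d30, Zfp804b and Tll1 (r = 0.84, 0.80 and 0.79) and for Sema6d Zkscan17, Rimklb and Zc3h12c (r = 0.83, 0.82 and 0.82). Sema3c was nearest to Zfp951, Plxna2 and Cacul1 (r = 0.81, 0.76 and 0.75), and Plxna2 is itself a guidance receptor that is highest in immature dentate-like nuclei.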

How the data were processed

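Single-nucleus RNA was measured in 2 Control and 2 Kat6a-cKO libraries. The authors deposited raw UMI counts, unfiltered whole numbers for each gene in every barcode. The submitters' processing notes name mm10 and Seurat 4.0.1. The aligner, annotation and use of strand are not given in the sources used here, and gene IDs matched GENCODE M21.

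Barcodes with at least 5000 UMIs were kept, and doublets called by Scrublet (expected rate 0.06) were left out. Nuclei were clustered with scanpy 1.11.5 and leidenalg 0.10.2 in Python 3.11.15 (2000 variable genes, 30 components, 15 neighbours, resolution 1, seed 0), without 183 genes that included all members. Naming went by the marker list with the largest share of genes raised 2-fold (5 CPM added), at least 50% and at least 3 of them. Clusters tied between classes, led by genes of another class or with glial markers at neuronal UMI counts stayed unnamed.

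Counts were summed per library and class and tested with edgeR 4.0.16 in R 4.3.3 (TMM, filterByExpr, quasi-likelihood, Benjamini-Hochberg over all genes). The code was also run on simulated counts with known changes. Those counts were drawn from the model of the test, so they do not show how it performs on these libraries. Classes with at least 30 nuclei in every library could be tested, and 7 were. CA2-like, hilar mossy-like, immature dentate-like, deep cortical-like and subicular or entorhinal-like nuclei also reached this number and were left untested. Named genes were those called, the 8 non-overlapping members of smallest p in each of CA3, CA1 and dentate granule nuclei, and a fixed list. Members and lists were chosen with earlier results of these data known. Unc50, which is no Unc5 receptor, was not counted. Alternatives were DESeq2 1.42.0, another scaling, no filter, a replicate block, each library left out, at least 8000 UMIs, doublets kept, resolution 2, the largest cluster alone, free RNA subtracted, and nearby unnamed clusters added. With 2 libraries against 2, an exact permutation test of a single value cannot give a p below 0.333.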

Additional observations from a re-analysis of the deposited data

Results flagged for a closer look

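For 4 members the change with genotype differed between classes of nuclei by a test of the difference itself in edgeR. The change of Ephb1 differed by -0.95 on the log2 scale between CA3-like and CA1-like nuclei (adjusted p = 0.000311) and by 1.03 between CA1-like and dentate granule-like nuclei (adjusted p = 0.00114). Between CA3-like and dentate granule-like nuclei the difference was 0.57 for Unc5d (adjusted p = 9.69e-05), -0.32 for Epha6 (adjusted p = 0.00104) and 0.90 for Sema3c (adjusted p = 0.0333). Except for Ephb1 between CA3-like and CA1-like nuclei, these calls were lost under some alternatives: Sema3c under 6 besides the subtraction of free RNA, Unc5d under 2, with 0.13 when nearby unnamed clusters were added, Epha6 under 2, and Ephb1 between CA1-like and dentate granule-like nuclei under 2.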

How the results depend on the processing

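The difference of Ephb1 between CA3-like and CA1-like nuclei passed under all 13 alternatives run, between -1.95 and -0.75 (highest adjusted p 0.00909 in edgeR). Counts of called members moved more. The shares of all genes called under these alternatives are not given here. A change in these counts therefore cannot be read as particular to guidance genes. In CA3-like nuclei (2) the count was 7 without a filter, 1 with doublets kept, 0 at resolution 2, 1 in the largest cluster, 0 with free RNA subtracted, 0 with nearby unnamed clusters added, and 2 to 5 with a library left out. In CA1-like nuclei (1) it was 6 without a filter, 0 with doublets kept, 2 in the largest cluster, 0 with free RNA subtracted, 0 with nearby clusters added, and 0 to 8 with a library left out. In dentate granule-like nuclei (0) it was 3 without a filter and 0 to 2 with a library left out. Inhibitory-like nuclei (0) gave 1 without a filter and 0 to 1 with a library left out, oligodendrocyte precursor-like nuclei (0) gave 0 to 1 with a library left out, and astrocyte-like nuclei (0) gave 1 with free RNA subtracted. Between CA3-like and CA1-like nuclei (1) it was 3 without a filter, 2 in the largest cluster, 2 with nearby clusters added and 1 to 4 with a library left out. Between CA3-like and dentate granule-like nuclei (3) it was 7, 0 with free RNA subtracted, 1 with nearby clusters added and 1 to 9. Between CA1-like and dentate granule-like nuclei (1) it was 6, 0, 0 and 1 to 3 in the same order. The labels do not say that replicate numbers pair libraries. With the replicate block the count was 9 in CA3-like nuclei (6 higher, 3 lower), 1 in CA1-like and 1 in dentate granule-like nuclei (Unc5c), and the deviations of same-numbered libraries correlated at 0.22, 0.26 and 0.26. The sign turned in inhibitory-like nuclei for Ephb1 (0.22 with doublets kept, 0.10 in the largest cluster), Sema3c (-0.18 to 0.13 with a library left out), Sema6d (-0.044 to 0.11 with a library left out, -0.0082 with free RNA subtracted) and Unc5d (-0.041 to 0.15 with a library left out), and for Sema3c between CA3-like and dentate granule-like nuclei (-5.81 with free RNA subtracted), where the amount subtracted exceeded the dentate granule level in 3 of 4 libraries, so that this value is no measurement, and DESeq2 gave no adjusted p. For the other members the cause was not tested. The free RNA estimate was too high in glia-like nuclei as well, where it would give 572 to 926 CPM of Epha6 and 53.7 to 156 were counted. The minimum of 8000 UMIs was not run in glia-like classes, nor the largest cluster in classes of 1 cluster. With a library left out, the lone library is assumed to vary like the other group.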

Other observations

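Kat6a-cKO replicate 1 had more Unc5d than the other 3 libraries in several clusters, outside the tested classes and within CA1-like nuclei. In CA1-like cluster 7 of resolution 2, Unc5d was at 7.98 and 12.1 CPM in Control against 34.1 and 8.72. In cluster 11 it was at 11.6 and 11.1 against 22.3 and 8.37, while clusters 4 and 6 did not show this. Barcodes under 100 UMIs, used for free RNA, had 191 and 190 CPM against 260 and 201, and their part was not tested. In unnamed cluster 10, led by Dcn and Col5a2, Unc5d was at 33.4 and 29.1 CPM in Control, 180 in Kat6a-cKO replicate 1 and 44.7 in replicate 2. In unnamed cluster 16 it was at 12.5 and 18.6 CPM against 61.9 and 12.6, and in CA2-like nuclei at 61.9 and 55.6 against 173 and 88.6. Immature dentate-like nuclei, the class highest in Sema3c, had 610 and 471 CPM in Control and 465 and 331 in Kat6a-cKO. These values were picked out after they were seen and were not tested.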
